A study of Homo sapiens with 4 samples.

Results

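The aldo-keto reductases described here are the genes whose symbol begins with AKR1 or AKR7, followed by a subfamily letter from A to E and a number. They were taken from probes with exactly 1 gene symbol in the platform annotation. The rule found 9 probes of 6 genes, among 20976 probes of 12483 genes with 1 symbol and 26629 probes in all. The genes are AKR1B10, AKR1C1 (4 probes), AKR1C3, AKR1C4, AKR7A2 and AKR7A3. The other 7 protein-coding genes whose symbols have this form in the RefSeq gene table (GRCh38.p14) are not analysed here; AKR1B1, AKR1C2 and AKR1A1 are among them. The family was picked because AKR1B10 stood among the most negative probes in earlier results of these data. Its mean over the arrays is therefore given as a description. Counts past the threshold that hold AKR1B10 are printed for completeness and support nothing, and the part of its log ratios that changes with the dye orientation, which the choice did not use, was tested.

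A549 is a human lung adenocarcinoma cell line. Each of the 4 arrays, a 2-colour design, set RNA of an A549 culture overexpressing let-7a-3 against RNA of a parental A549 culture. The design gives 4 transfected and 4 parental culture replicates. All cultures were grown in DMEM with fetal calf serum and had no other treatment. With parental cells as the control, transfection itself and let-7a-3 cannot be told apart. The sources used here do not give the promoter of the construct or the number of transfected lines.

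Aldo-keto reductases are soluble enzymes that reduce aldehydes and ketones to alcohols with NADPH. AKR1B10 reduces retinal and reactive lipid aldehydes, and it is known for high expression in lung cancers of smokers. The AKR1C enzymes are hydroxysteroid dehydrogenases that also act on prostaglandins, and the AKR7A enzymes reduce the dialdehyde of aflatoxin. AKR1B10 and AKR1C genes are well-known targets of the transcription factor NRF2, which is constitutively active in A549 cells through loss of its inhibitor KEAP1.

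The mature RNAs of the overexpressed gene, MIRLET7A3 on chromosome 22, are shown because they are the agent of the study. The capitals mark the seed (bases 2 to 8), the stretch through which a microRNA mainly recognises its targets. The sequences are from RefSeq (GRCh38.p14, plus strand). The 5p strand lies at chr22:46112752-46112773 and the 3p strand at chr22:46112800-46112820.
hsa-let-7a-5p: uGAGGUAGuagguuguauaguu
hsa-let-7a-3p: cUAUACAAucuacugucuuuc

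The deposited values are log ratios between the channels of an array. Neither their logarithm's base nor their numerator channel is stated, so no fold is given, and a negative value does not say which culture had more RNA. The dyes were exchanged between arrays 1 and 3 on one side and arrays 2 and 4 on the other. Each probe was therefore described by a shared component, the mean of the 4 log ratios, and an alternating component, the part that changes sign with the dye orientation (here with the sign of arrays 1 and 3). If the authors turned the swapped arrays before deposit, the shared component compares let-7a-3 with parental cultures. If they did not, it holds the dye effect and the alternating component holds the comparison. The labels do not settle this, so both are given. Over all probes the array medians lay between -0.0022 and 0.017 and the standard deviations between 0.17 and 0.19. Arrays of the same dye orientation correlated at r = 0.43 and 0.56 across probes, and those of opposite orientation between -0.16 and 0.055. Log ratios carry no level, so the presence of A549 markers could not be checked, and in bulk RNA fewer expressing cells and less RNA per cell cannot be told apart. Among listed marker genes with a value, 2 of 14 for lung epithelium, 0 of 8 for fibroblasts, 0 of 9 for endothelium and 1 of 7 for blood cells passed an adjusted p of 0.05 in the shared component in limma, where 3.04% of all genes passed. At an unadjusted p under 0.05 there were 2, 1, 1 and 1, against 14.6% of all genes. The genes past the adjusted threshold were FOXA1 (0.33, from clones at 0.073 and 0.59) and KRT8 (0.39) of lung epithelium and NKG7 (-0.26) of blood cells. In the alternating component 2 of 9 endothelial genes passed, ESAM (-0.31) and TEK (-0.20), where 3.29% of all genes passed. The calls of NKG7, ESAM and TEK were lost without the dye term and without array 2 or 4, and that of TEK also with median centring and with scaling. Their part in the results below was not tested.

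AKR1B10 stood apart from the other 5 genes of the family. Its log ratio was -0.84 on array 1, -0.87 on array 2, -0.79 on array 3 and -0.87 on array 4. The 4 values were all negative and close together, with a mean of -0.84 ± 0.039 (SD, n = 4 arrays). It was the probe with the 22nd lowest mean of all 26629, and 0.195% of probes lay as far from 0. Its SD was among the smallest 2.88% of all probes, where the median probe had 0.14. The alternating component of AKR1B10 was 0.029 ± 0.049 (SE; limma adjusted p = 0.739, range 0.512 to 0.966 over the alternatives). Its log ratio thus kept its sign and nearly its size when the dyes were exchanged. AKR1B10 was measured by 1 clone, IMAGp998N074863, and no second clone of the gene was available to set beside it.

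**Figure D1:**
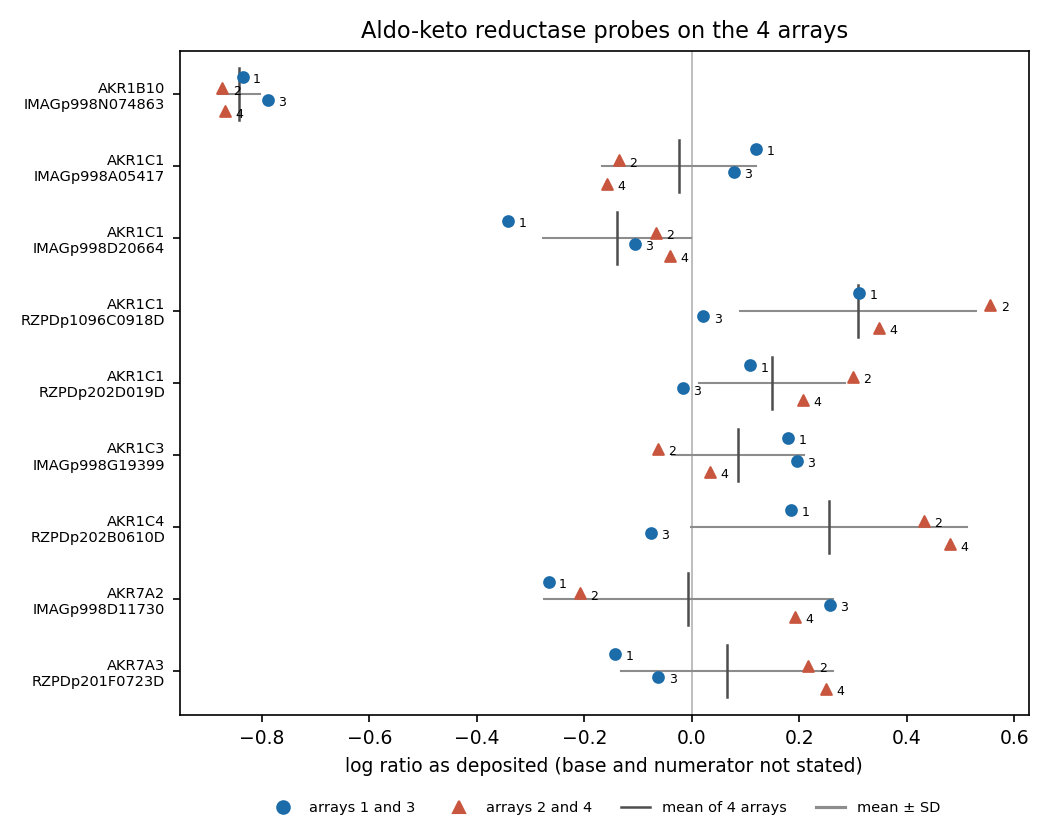
Log ratio (horizontal axis, as deposited) of each of the 9 aldo-keto reductase probes on each of the 4 arrays, numbered beside the points. Circles are arrays 1 and 3, triangles arrays 2 and 4, the vertical bar is the mean and the grey line mean ± SD. AKR1B10 lies between -0.87 and -0.79 on all arrays, while the other probes lie between -0.34 and 0.56.

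The AKR1C genes lie side by side on chromosome 10. AKR1C1, which inactivates progesterone by reduction at its carbon-20 ketone, was measured by 4 clones, and they did not behave alike. Clone RZPDp1096C0918D had log ratios of 0.31, 0.56, 0.021 and 0.35 on arrays 1 to 4, all positive (mean 0.31 ± 0.22, SD, n = 4). Clone RZPDp202D019D had 0.11, 0.30, -0.016 and 0.21, positive on 3 of 4 arrays (mean 0.15 ± 0.14). Both were highest on array 2 and lowest on array 3. Clone IMAGp998D20664 was negative on every array, at -0.34, -0.067, -0.11 and -0.041 (mean -0.14 ± 0.14), and array 1 was the lowest. Clone IMAGp998A05417 was positive on arrays 1 and 3 (0.12 and 0.078) and negative on arrays 2 and 4 (-0.14 and -0.16), so that its mean was -0.024 ± 0.14. The clone means spanned 0.45, more than the SD of any of the 4 over the arrays. Averaged over its clones AKR1C1 stood at 0.074 ± 0.071 (SD, n = 4).

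AKR1C4, the liver-type enzyme of bile acid and steroid metabolism, had 1 clone, with log ratios of 0.18, 0.43, -0.076 and 0.48 (mean 0.26 ± 0.26, SD, n = 4). It was positive on 3 of 4 arrays and highest on arrays 2 and 4, as were the RZPDp clones of AKR1C1. AKR1C3, which makes testosterone and prostaglandin F, had 0.18, -0.062, 0.20 and 0.034 (mean 0.086 ± 0.12), with arrays 1 and 3 above arrays 2 and 4. The AKR1C genes are close relatives, and a cDNA clone of one may bind RNA of another. How far these probes read their neighbours was not tested.

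The clones come from several collections, and the sign of the AKR1C1 means followed the collection. The 4 family probes with RZPDp names had means between 0.065 and 0.31, and the 5 with IMAGp998 names lay between -0.84 and 0.086. Over all probes the 5082 RZPDp clones had medians of -0.0027, 0.032, -0.0073 and 0.026 on arrays 1 to 4, and the 21547 IMAGp998 clones had 0.0083, 0.014, -0.00050 and 0.0067. The part of the collection in the AKR1C values was not tested further.

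AKR7A2, a reductase of succinic semialdehyde, had log ratios of -0.27, -0.21, 0.26 and 0.19 on arrays 1 to 4. Arrays 1 and 2 were negative and arrays 3 and 4 positive, so the mean (-0.0061 ± 0.27, SD, n = 4) and the alternating component (0.0015) both lay near 0. A difference this large between arrays 1 and 2 and arrays 3 and 4 was found in 0.312% of all probes. It does not follow the dye orientation, and was noticed after the values were seen. The numbers by which the labels name the RNA sources form 2 sets of 4, and the lower numbers of each set are on arrays 1 and 2, so they follow the same split; what the numbers stand for is not stated. AKR7A3, its neighbour on chromosome 1, had -0.14, 0.22, -0.062 and 0.25. Its sign changed with the dye orientation on all 4 arrays (mean 0.065 ± 0.20).

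**Figure D2:**
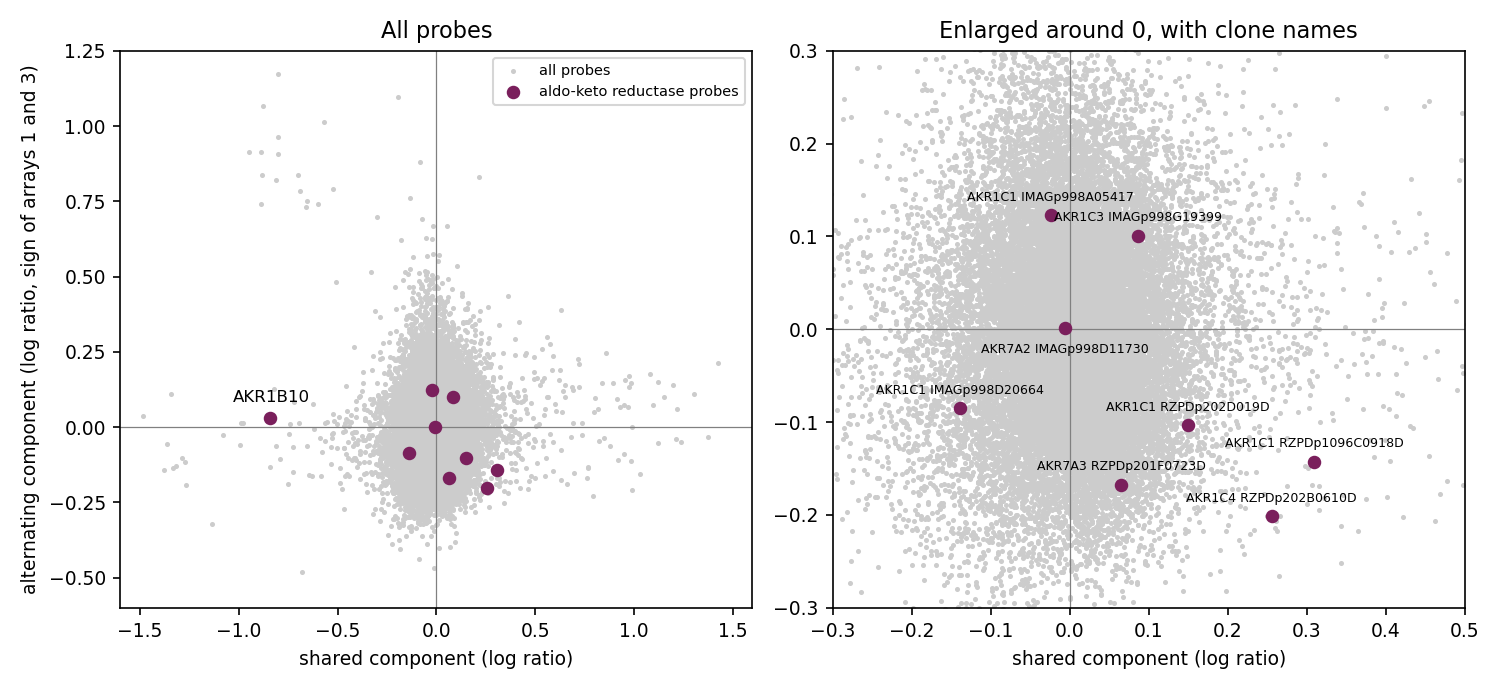
Shared component (horizontal) against alternating component (vertical) of the log ratios, for all 26629 probes (grey) and the 9 aldo-keto reductase probes (purple), with the region near 0 enlarged on the right. AKR1B10 lies at -0.84 and 0.029, and the other 8 probes lie between -0.14 and 0.31 on the horizontal axis.

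Of the 9 family probes 2 passed an adjusted p of 0.05 in the shared component, AKR1B10 with a negative value and AKR1C1 clone RZPDp1096C0918D with a positive one, where 2.07% of all probes passed (1.12% positive and 0.946% negative). Nothing is read from this count, since AKR1B10 was chosen on this contrast. The AKR1C1 call was lost without the dye term, with median centring, and without array 1, 2 or 4. The shared component of that clone lay between 0.24 and 0.38 over all alternatives. With an array left out, this component is the mean of the averages of the dye orientations, not of the arrays left. With the probes of a gene averaged, AKR1B10 and AKR1C4 passed among the 6 genes, where 3.04% of all genes passed (1.63% positive and 1.41% negative). That call of AKR1C4 was lost without the dye term, without array 2 and without array 4. The family's probes had a median of 0.065 in the shared component, with 5 positive and 4 negative, and all probes together had a median of 0.0081. The sign was the same on all 4 arrays in 3 of the 9 probes, and in 14.1% of all probes. AKR1B10, chosen by its mean, was among these 3, so nothing is read from this count either.

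In the alternating component, which is independent of the mean by which AKR1B10 was chosen, none of the 9 probes passed in limma, where 4.28% of all probes passed. At an unadjusted p under 0.05 there were 3 of the 9, against 25.2% of all probes. At an adjusted p under 0.1 there were 2 of the 9, against 11.8% of all probes. Of the family AKR1C4 had the largest size (-0.20 ± 0.057, SE; adjusted p = 0.0771, range 0.0301 to 0.331 over the alternatives). It was followed by AKR7A3 (-0.17 ± 0.049; adjusted p = 0.0825, range 0.076 to 0.36). AKR1C4 passed without array 1, at -0.27. With gene averages AKR7A3 and AKR1C4 passed without array 1, and AKR7A3 without array 3. The AKR1C1 clones lay at 0.12, -0.085, -0.14 and -0.10, with adjusted p between 0.16 and 0.362, and AKR1C3 at 0.10 (limma adjusted p = 0.237). The median was -0.085 over the family's probes and -0.0097 over all probes.

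The upstream sequences of the AKR1C genes are shown because these neighbouring genes are copies of one another and the values above set them side by side. RefSeq start windows (GRCh38.p14) matched 5 of the 6 genes, with 7 windows; AKR1B10 was not matched. The 250 bases before the start site were aligned between AKR1C1 (chr10:4963165-4963414, plus strand) and AKR1C4 (chr10:5196587-5196836, plus strand). Of 231 aligned bases 68.4% were identical, with unaligned bases left out. AKR1C3 has 2 starts, and that at chr10:5094164-5094413 (plus strand) is shown. It shared 184 of 234 aligned bases with AKR1C1 (78.6%), and the other start shared 185 of 241 (76.8%). Capitals mark a CCAAT box on either strand, seen here as its reverse ATTGG, and the TATA box letters TATAAA.
AKR1C1: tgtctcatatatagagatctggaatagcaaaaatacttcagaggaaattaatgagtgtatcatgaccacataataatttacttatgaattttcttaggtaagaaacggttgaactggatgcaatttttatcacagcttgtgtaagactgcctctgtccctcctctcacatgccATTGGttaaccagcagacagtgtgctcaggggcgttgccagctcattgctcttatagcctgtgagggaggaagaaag
AKR1C3: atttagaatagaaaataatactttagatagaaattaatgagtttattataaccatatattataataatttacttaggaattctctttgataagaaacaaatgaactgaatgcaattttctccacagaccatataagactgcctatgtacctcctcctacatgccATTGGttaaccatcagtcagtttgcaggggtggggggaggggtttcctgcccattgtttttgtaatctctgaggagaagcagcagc
AKR1C4: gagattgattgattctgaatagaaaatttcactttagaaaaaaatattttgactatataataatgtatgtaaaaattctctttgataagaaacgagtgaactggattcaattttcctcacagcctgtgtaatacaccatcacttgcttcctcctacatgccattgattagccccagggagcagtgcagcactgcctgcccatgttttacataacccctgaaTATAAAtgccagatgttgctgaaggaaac

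The letters CCAAT were found in the window of AKR1C1 and in both of AKR1C3, and in 32.0% of all 35116 windows of 250 bases. TATAAA was found in the window of AKR1C4 and in the other window of AKR1C3, and in 10.7% of all. The core of the antioxidant response element through which NRF2 acts, searched as TGACNNNGC on both strands, was found in both windows of AKR7A2 and in 10.9% of all. The AP-1 letters TGANTCA, which can overlap that core, were found in none of the 7 windows and in 6.57% of all. These are matches of letters in a short window, and they say nothing about more distant sites.

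Among all genes with 1 symbol, the 6 probes closest to AKR1B10 in their 4 log ratios (by Euclidean distance over the 4 arrays) were those of LGALS3BP, LACTB, TGFB2, PTPRF, MORC4 and GOPC. The secreted glycoprotein LGALS3BP was the closest, at a distance of 0.22, with -0.93, -0.69, -0.82 and -0.81 on arrays 1 to 4. LACTB, a mitochondrial protein, lay at a distance of 0.31 with a mean of -0.79 ± 0.14 (SD, n = 4). The ligand TGFB2 stood at -0.72 ± 0.15, the phosphatase PTPRF at -0.84 ± 0.15, MORC4 at -0.99 ± 0.11 and the Golgi protein GOPC at -0.69 ± 0.088. All 6 had a larger SD over the arrays than AKR1B10. Of the 3 genes with further clones, TGFB2 had others between -0.29 and -0.057, PTPRF had one at -0.083 and GOPC had -0.042 and 0.024.

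**Figure D3:**
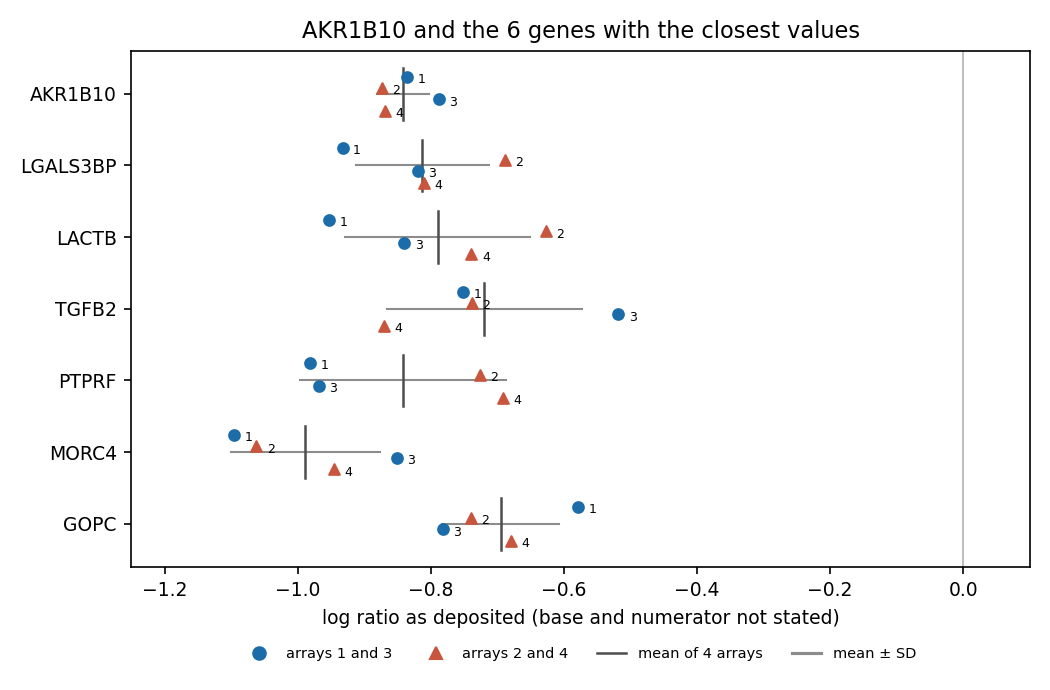
Log ratio (horizontal axis, as deposited) of AKR1B10 and of the 6 probes closest to it on the 4 arrays, numbered beside the points; bars and lines are the mean and mean ± SD. All 7 probes lie at -0.52 or lower on every array, and AKR1B10 has the narrowest spread.

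AKR1B10 lies on chromosome 7 between AKR1B1 and AKR1B15, its nearest relatives in sequence, neither of which is analysed here. The nearest genes with a value, by their order among protein-coding genes in RefSeq and chosen after the values were seen, stayed near 0. SLC35B4, a sugar nucleotide transporter 2 genes before it, had a mean of 0.025 ± 0.12 (SD, n = 4; limma adjusted p = 0.846). BPGM, the bisphosphoglycerate mutase 2 genes after it, had -0.016 ± 0.066 (limma adjusted p = 0.896). LRGUK and CALD1, the next on each side, stood at 0.11 and -0.082 and did not pass.

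Genes that share substrates, cofactors or regulation with the family were set beside it, averaged over their probes. Of 15 NRF2 targets and regulators with a value, 2 passed in the shared component, both positive, where 3.04% of all genes passed. An unadjusted p under 0.05 was reached by 7 of these genes and by 14.6% of all genes. The 2 past the adjusted threshold were PGD, which makes NADPH in the pentose phosphate pathway, and the peroxiredoxin PRDX1. PGD had 0.35, 0.47, 0.49 and 0.49 on arrays 1 to 4 (mean 0.45 ± 0.064, SD, n = 4; limma adjusted p = 0.00104). PRDX1 had 0.45, 0.70, 0.33 and 0.73 (mean 0.55 ± 0.19; adjusted p = 0.000342). Both were positive on all arrays, opposite in sign to AKR1B10. The other 13 lay between -0.23 and 0.19, among them the glutathione synthesis genes GCLC (-0.017) and GCLM (-0.068), sulfiredoxin, SRXN1 (0.18), and NFE2L2, which encodes NRF2 (0.060). The median of the 15 was 0.041, against 0.0069 over all genes.

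In the lists of carbonyl and prostaglandin reductases and of aldehyde dehydrogenases the calls in the shared component were all negative. Over all genes 3.04% passed in either direction and 1.41% with a negative value. In the aldo-keto reductase family itself AKR1C4 passed with a positive value (0.26) and AKR1B10 with a negative one. Of 13 carbonyl and prostaglandin reductases PTGR1 passed with a negative value (-0.24 ± 0.10, SD, n = 4; limma adjusted p = 0.0336). PTGR1 acts on leukotriene B4 and lipid aldehydes. Averaged over its 2 clones it had -0.32, -0.29, -0.27 and -0.094 on arrays 1 to 4. Clone IMAGp998O08788 was negative on all arrays (mean -0.16 ± 0.061, SD). Clone RZPDp201C0735D had -0.52, -0.37, -0.45 and 0.023 (mean -0.33 ± 0.24). The call of PTGR1 was lost without the dye term and without array 2. An unadjusted p under 0.05 was reached by 5 of these reductases and by 14.6% of all genes. Of 13 aldehyde dehydrogenases 2 passed, both negative. ALDH18A1, an enzyme of proline synthesis, stood at -0.21 ± 0.13 (limma adjusted p = 0.0374), and ALDH4A1, of proline breakdown, at -0.20 ± 0.15 (limma adjusted p = 0.0456). Both calls were lost without the dye term and without array 2 or 4. At an unadjusted p under 0.05 there were 4 of the 13 dehydrogenases. ALDH18A1 and ALDH4A1 act on amino acid intermediates. The retinal dehydrogenase ALDH1A1, which shares its substrate with AKR1B10, stood at -0.14 (adjusted p = 0.13).

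PTGES, which makes prostaglandin E2, alone passed in the shared component among 23 genes of steroid and prostaglandin metabolism, where 3.04% of all genes passed (1 of the 23 at an unadjusted p under 0.05). It had log ratios of -0.55, -0.34, -0.51 and -0.28 on arrays 1 to 4, negative on all (mean -0.42 ± 0.13, SD, n = 4; limma adjusted p = 0.00106). Its clones lay at -0.40 and -0.44 and thus had similar means. By limma no gene of the 19 of retinoid metabolism and signalling passed (3 had an unadjusted p under 0.05), and RDH8 (-0.16) and RBP2 (0.13) had the largest moderated statistics. The 7 genes of polyol, fructose and hexose metabolism gave 0 calls in limma (1 with an unadjusted p under 0.05), with ALDOC (0.14) and SLC2A1 (0.077) first. KCNAB1 (0.058) and KCNAB2 (-0.089), potassium channel subunits with an aldo-keto reductase fold, did not pass in limma (0 of 2 at an unadjusted p under 0.05). The medians of these lists lay between -0.016 and 0.033.

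In the alternating component 3.29% of all genes passed, and in these lists the progesterone receptor PGR (0.48), the steroid dehydrogenase HSD17B6 (-0.24) and the hexokinase HK3 (0.25) did. PGR had log ratios of 0.50, -0.51, 0.40 and -0.50 on arrays 1 to 4, with a sign that followed the dye orientation (limma adjusted p = 0.00706). The calls of HSD17B6 (limma adjusted p = 0.0318) and HK3 (0.0397) were lost without the dye term and without array 2 or 4. The 15 NRF2 genes gave 0 calls there in limma (2 with an unadjusted p under 0.05, where 25.6% of all genes had one). With quantile normalization 2 of them passed there, OSGIN1 (-0.265) and PRDX1 (-0.22). Calls gained this way were not particular to the NRF2 list. The aldehyde dehydrogenases then gave 1 call, ALDH1A2 (0.27), against 0, and the polyol, fructose and hexose genes 2, against 1. Over all probes 1415 passed, against 1141. OSGIN1 also passed without array 1 or 3, and PRDX1 without array 1.

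**Figure D4:**
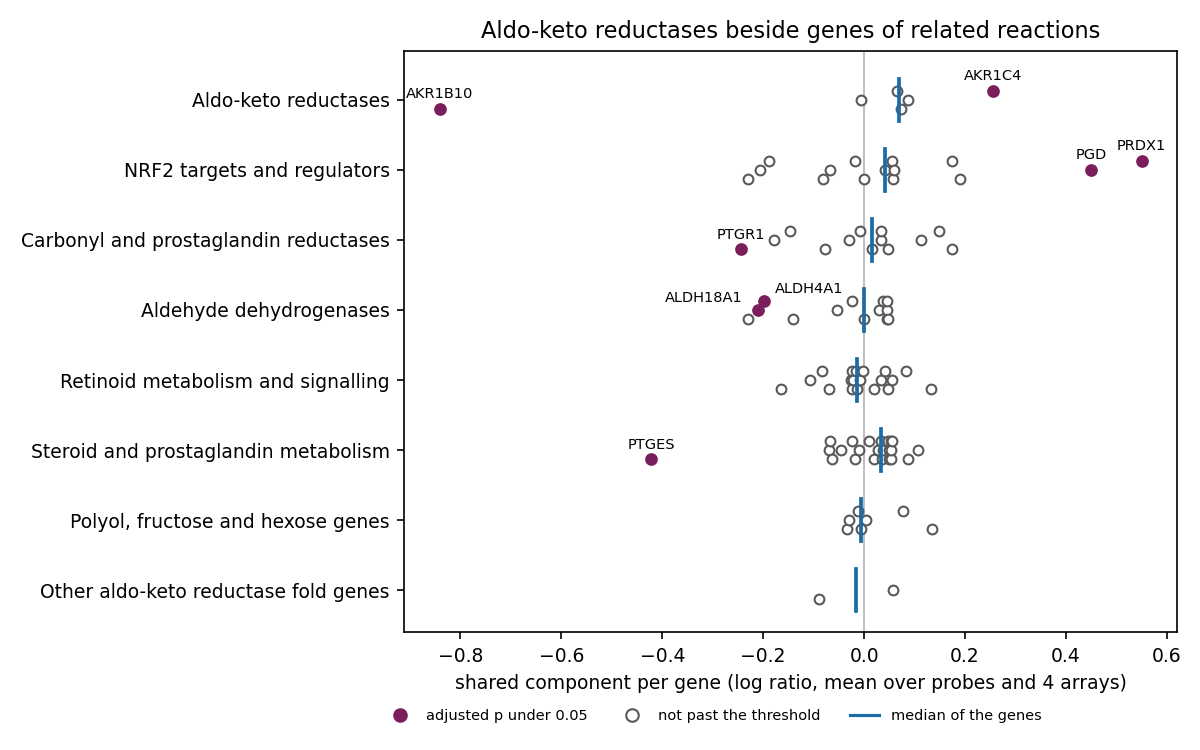
Shared component per gene (horizontal axis, log ratio averaged over probes and the 4 arrays) for the 6 aldo-keto reductases and 7 lists of related genes; filled points passed an adjusted p of 0.05 in limma, open points did not, and the blue bar is the median of each list. AKR1B10 at -0.84 lies below every gene of the lists, PTGES at -0.42 being the next, and PRDX1 at 0.55 and PGD at 0.45 lie at the other end.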

How the data were processed

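RNA was amplified once before labelling, per the labels' protocols. The authors took the 4 arrays' GenePix output through ArrayMagic with variance-stabilizing normalization, then limma, per the design text. The deposited values are log ratios of unstated base, 1 column per array, with no missing values and no intensities, so dim probes could not be filtered. This normalization compresses the log ratios of dim spots. For software versions, spot filters and averaging, nothing is given in the sources used here.

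The log ratios were used as deposited. Probes were named through the platform annotation; 848 had several symbols and 4805 none. All 26629 probes, and separately 12483 gene averages, went into a limma 3.58.1 fit (R 4.3.3) of 2 coefficients, the shared and the alternating component, leaving 2 residual degrees of freedom plus 7.22 from moderation for probes. Two-sided p-values were adjusted by Benjamini-Hochberg across every probe or gene, with a threshold of 0.05. The design text calls the cultures biological replicates. Precision is limited by having 4 arrays.

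The members and the 11 lists (7 of pathways, 4 of markers) were chosen with earlier results of these data known. All member probes, the 6 probes closest to AKR1B10, and the list genes past the threshold (otherwise up to 2 with the largest moderated statistic) are named; AKR1C1 clones, list genes named in addition and genomic neighbours were chosen after their values were seen. The fit was also run on simulated data, independent normal values with the moderated spread of the 26629 probes. There a shared change of 0.25 was recovered in 49.3% of 67 probes and an alternating one in 44.8% of 67. Every change of 0.5 or 1 was recovered. Moderation had already drawn the spreads of the probes together, so recovery in the real data may differ. Sequences are from RefSeq tables (GRCh38.p14), aligned with Biopython 1.88. Plots used matplotlib 3.10.9 (Python 3.11.15).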

Additional observations from a re-analysis of the deposited data

How the results depend on the processing

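The alternatives were median centring, MAD scaling, quantile normalization, no dye term, robust moderation, probes with 1 symbol and each array left out. The shared component of AKR1B10 lay between -0.86 and -0.83 under all of them. Leaving out the dye term, robust moderation and the restriction to probes with 1 symbol cannot change this value, which was -0.84 there. The side of the threshold on which AKR1B10 lay is not counted as support, since the gene was chosen on this contrast. The number of probes past the threshold in the shared component was 867 at an adjusted p of 0.1, 231 without the dye term and between 271 and 884 with an array left out, against 550. In the alternating component it was 3154, 102 and between 113 and 1874, against 1141. Among the family's probes the shared count was 1 without the dye term and with median centring, and between 1 and 3 with an array left out, against 2. Without array 3, and with quantile normalization, AKR1C4 was the third. The alternating count was 2 at an adjusted p of 0.1, and between 0 and 1 with an array left out, against 0. Alternating components near 0 changed sign in AKR1B10 with quantile normalization (-0.056) and in AKR7A2, which lay between -0.13 (without array 3) and 0.13 (without array 1) with an array left out and at -0.099 without array 2, none past the threshold. The cause of these changes was not tested. Leaving out an array also removes 1 of the 2 residual degrees of freedom. No paired analysis was possible because each log ratio already is a difference within 1 array, so the fit is paired as it stands and no further block could be added.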

Other observations

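NRF2 itself, encoded by NFE2L2, was measured by 4 clones that disagreed, as those of AKR1C1 did; this was noticed after the values were seen. Clone RZPDp1096B0620D had log ratios of 0.26, 0.38, 0.58 and 0.73 on arrays 1 to 4, positive on all (mean 0.49 ± 0.21, SD, n = 4). The 3 IMAGp998 clones had means of -0.057, -0.12 and -0.072, and the first of them ranged from -0.44 to 0.54 over the arrays. The average over the clones, 0.060, therefore described none of them. PTGES and PTGR1, list genes past the threshold, also had clones of both collections, all with negative means. In PTGES the RZPDp clone had a mean of -0.44 and the IMAGp998 clone -0.40. For PTGR1 these were -0.33 and -0.16. Both genes were named because the average over their clones passed with a negative value. Nothing is therefore read from them about the collections, whose part was not tested.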
